A study of Mus musculus with 72 samples.

Results

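Expression of 6 acetylcholine receptor genes was described in single Pet1 neurons of the mouse dorsal raphe (DR): the nicotinic subunit genes Chrna3, Chrna4, Chrna7 and Chrnb2, and the muscarinic receptor genes Chrm2 and Chrm3. They were chosen by name, and 6 of 6 had a row in both tables of counts, among 17231 genes in the filtered 10X table and 24256 genes in the table of manually sorted cells. Chrnb2 was found in 75.1% of 10X cells and in every sorted group. Chrm2 was found in every cell of 1 cluster of 10X cells and of 1 sorted group. Elsewhere Chrm2 was in a part of the cells, except for 2 sorted groups where no cell had a read. Chrna4 and Chrna7 were sparse with a few clusters above the rest, and Chrna3 and Chrm3 were too sparse in both tables for a level to be compared between groups.

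Pet1 neurons are the neurons marked by Fev, the gene of the transcription factor PET1, and most of them make serotonin. For the 10X experiment, DR neurons were sorted on the On-Chip Sort from mice labelled Pet1::Flpe+/-; hM3Dq+/+ in 1 run and En1::cre+/-;Pet1::Flpe+/-;RC::FrePe+/- in the other, with mean ages of postnatal day 65.5 and 59 in that order, and the filtered table holds 2350 cells. For the manual experiment, 70 single cells were picked from dissected parts of the DR of mice in which a Cre driver, Pet1::Flpe+/- and RC::FrePe+/- together switch on EGFP. With Sert::cre+/-, 10 cells came from the dorsolateral DR (Sert_Pet1_dlDR), 9 from the dorsomedial DR (Sert_Pet1_dmDR) and 8 from the ventromedial DR (Sert_Pet1_vmDR) at postnatal days 63 and 90, and 6 from the caudal DR (Sert_Pet1_cDR) at day 63. P2ry1::cre+/- gave 10 caudal cells at days 62 to 74 (P2ry1_Pet1_cDR). Npy2r::cre+/- gave 10 caudal cells (Npy2r_Pet1_cDR) and 9 rostral cells (Npy2r_Pet1_rDR) at days 77 and 87, and Crh::cre+/- gave 8 rostral cells at days 83 and 119 (Crh_Pet1_rDR). Pet1-Flpe is a transgene that uses Fev sequence, and the Sert and Crh drivers are transgenes. A recombinase marks every cell that ever had the driver on, so a sorted group holds cells by the history of the driver and not by its present level. The hM3Dq allele carries a modified human muscarinic receptor gene (CHRM3) that needs Cre, which those mice lacked, and whether any of its reads were counted for mouse Chrm3 was not tested.

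Acetylcholine acts on nicotinic and muscarinic receptors. Nicotinic receptors are ion channels built from several subunits that open when acetylcholine binds. The products of Chrna4 and Chrnb2 assemble into the main high-affinity channel of the brain, that of Chrna3 is best known from autonomic ganglia, and that of Chrna7 can form a channel on its own. Muscarinic receptors are G protein-coupled: the M2 receptor (Chrm2) acts through Gi/o proteins, lowers cAMP and opens GIRK potassium channels, and the M3 receptor (Chrm3) acts through Gq proteins and phospholipase C. The DR receives acetylcholine from the laterodorsal and pedunculopontine tegmental nuclei.

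In subunits called alpha, a pair of adjacent cysteines lies in the loop that closes over bound acetylcholine, and beta subunits lack that pair. The coding stretch of that pair is shown because it separates the 3 alpha genes from Chrnb2. It was read from the mouse genome GRCm38 (mm10) with the GENCODE vM21 annotation, 5′ to 3′ on the coding strand, with the 2 cysteine codons in capitals.
Chrna3: atcaagtacaacTGCTGTgaggagatctac
Chrna4: aggaagtatgaaTGCTGTgccgagatctat
Chrna7: aagttctatgaaTGCTGCaaagagccatac
The Chrna3 stretch is chr9:55015842-55015871 on the minus strand, in coding exon 5 of 6, and its pair is codons 222 and 223 of 504. That of Chrna4 is chr2:181029266-181029295 on the minus strand, in coding exon 5 of 6, with codons 227 and 228 of 629. That of Chrna7 is chr7:63106146-63106175 on the minus strand, in coding exon 7 of 10, with codons 212 and 213 of 502. Chrnb2, with 501 codons, has 0 such pairs.

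The genes lie apart on 6 chromosomes: Chrna3 at chr9:55010111-55026562, Chrna4 at chr2:181018380-181043546, Chrna7 at chr7:63098692-63212569, Chrnb2 at chr3:89746195-89764632, Chrm2 at chr6:36388084-36528414 and Chrm3 at chr13:9875486-10360847, all on the minus strand but Chrm2. Chrna3 sits between Chrna5, 2331 bases away, and Chrnb4, 1591 bases away, a cluster of subunit genes. Exons of Chrnb2 share 1365 bases with Adar, an RNA-editing enzyme on the opposite strand, and exons of Chrm2 share 142 bases with 9330158H04Rik, also on the opposite strand. For the manual cells nothing used here states whether reads were counted by strand, so reads in these stretches cannot be told apart there.

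The 10X table gave between 12320 and 134079 UMIs per cell with a median of 59646, and a median of 7730 genes per cell. Its cells carry no run or animal, only barcodes that end in 1 (869 cells, barcode set 1) or 2 (1481 cells, barcode set 2), with 0 barcodes shared between the sets, so it was 1 sample and nothing was tested between cells. The manual libraries held 756872 to 7664103 reads on genes per cell with a median of 4113038. Each manual sample is 1 cell and the labels name no animal, so a sorted group was also 1 sample and no group was tested against another. Fev, Tph2, Slc6a4, Slc18a2 and Ddc, which mark serotonin neurons, had a UMI in 98.3% to 100% of 10X cells. Levels are given with 95% exact Poisson intervals and shares of cells with 95% Clopper-Pearson intervals, neither of which covers more than counting error. Where no cell or count was found, the upper limit given is instead 3 of the total (3 of 70 cells, for example).

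Over all 10X cells, Chrnb2 was the member found in the most cells. A UMI of Chrnb2 was present in 1765 cells, 75.1% (73.3 to 76.8), and its 3664 UMIs made 27.0 CPM (26.2 to 27.9), where CPM is the summed UMIs of the gene per 1000000 UMIs of all genes. Chrm2 had a UMI in 656 cells, 27.9% (26.1 to 29.8), at 11.3 CPM (10.8 to 11.9), with up to 18 UMIs in a cell. Chrna4 was found in 216 cells, 9.19% (8.05 to 10.4), with 337 UMIs.

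The other members were rarer still. Chrna7 was found in 113 cells, 4.81% (3.98 to 5.75), with 127 UMIs. Chrna3 was found in 25 cells, 1.06% (0.690 to 1.57), with 30 UMIs. Chrm3 was found in 23 cells, 0.979% (0.621 to 1.47), each with 1 UMI.

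As a scale for these shares, the median gene of the table had a UMI in 37.7% of cells, and 33.4% of genes were found in under 10% of cells, the limit below which a member was called sparse. By that limit Chrna3, Chrna4, Chrna7 and Chrm3 were sparse, and Chrnb2 and Chrm2 were not. The table was filtered to Pet1 neurons, so it holds no cell type that should lack these genes. Chrna1, a subunit of the muscle receptor, had a UMI in 3.19% of the same cells and Chat, the enzyme that makes acetylcholine, in 0.340%. The shares of Chrna3 and Chrm3 lay between those values, and are not read as expression. The share of Chrna7 lay above that of Chrna1. Its cells were not spread evenly over the clusters, but neither were those of Chrna3.

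Shares of cells depend on depth. When 20000 UMIs were drawn from each cell, leaving aside 53 cells with fewer, Chrnb2 was found in 40.3% of 2297 cells, Chrm2 in 15.8% and Chrna4 in 5.01%. Thinned shares were 1.96% for Chrna7, 0.522% for Chrna3 and 0.218% for Chrm3. The order of the members by share was the same at either depth.

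Chrm2 was found in 33.5% of cells in barcode set 1 and 24.6% in set 2, at 13.6 and 10.1 CPM. Chrnb2 was at 30.7 CPM in set 1 and 25.0 CPM in set 2. The level of Chrna4 was 2.49 CPM in set 1 and 2.48 CPM in set 2. The sets hold different shares of the clusters, and nothing states which run a set stands for, so run, genotype and barcode set cannot be told apart.

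Cells were clustered again with the settings of the study's methods into 14 clusters of 86 to 369 cells, which are called here by number and by genes that mark them. Chrna3, Chrna4 and Chrm2 were among the 2000 variable genes that shaped the clusters, so cluster values are a description. The serotonin genes were lowest in cluster 13, with Tph2, which makes serotonin, at 644 CPM in cluster 13. Cluster 12 had 1702 CPM of Tph2, cluster 14 had 1445 CPM, and the other 11 had 2002 to 3759 CPM.

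Chrnb2, the beta partner, was nearly even across clusters. Cluster 5, marked by Pdyn and Ret, had 30.5 CPM (27.4 to 33.9) and cluster 12 had 25.0 CPM (20.8 to 29.8). Among the 13 clusters in that span, no neighbours by level differed beyond the counting interval. Clusters further apart in the span were not compared with each other. Cluster 1, marked by Npas1 and Gabrq, stood below them at 16.6 CPM (13.1 to 20.8), from 75 UMIs in 100 cells. Against the remaining cells its log2 ratio was -0.72 (-1.07 to -0.39), and the step from cluster 12 down to cluster 1 was 0.59 (0.16 to 1.02) on the log2 scale. In cluster 1, 49.0% of cells held a UMI, and after thinning 26.3%, against 33.5% to 50.5% in the other clusters. Cluster 1 was the lowest in each barcode set, at 20.6 and 14.4 CPM.

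**Figure D1:**
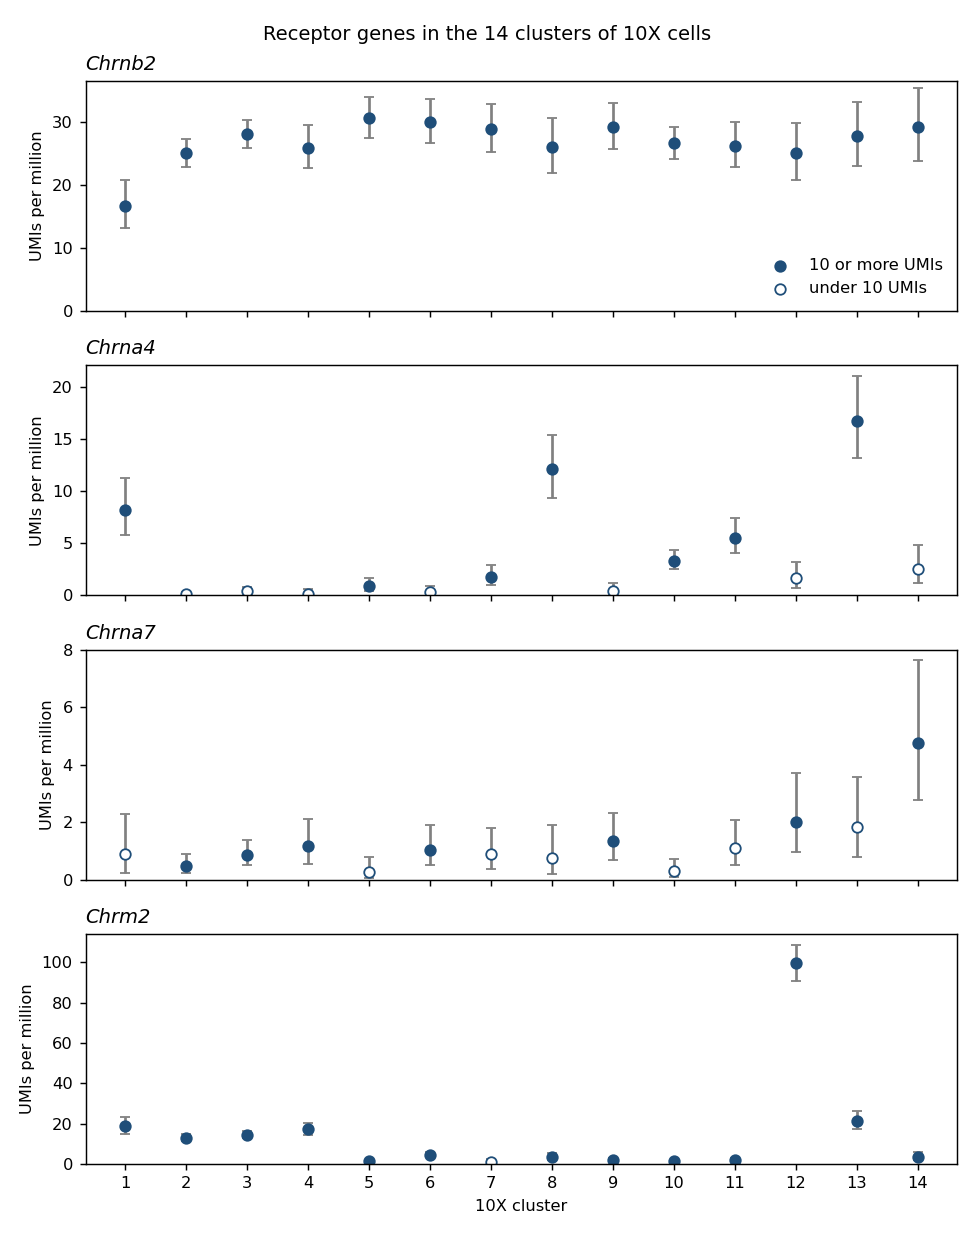
Level of Chrnb2, Chrna4, Chrna7 and Chrm2 in the 14 clusters of 10X cells, in CPM (linear axes, each with its own range), with 95% exact Poisson intervals; open circles rest on under 10 UMIs. Chrnb2 lies between 16.6 and 30.5 CPM everywhere, Chrna4 stands up in clusters 13 and 8, Chrna7 in cluster 14, and Chrm2 reaches 99.6 CPM in cluster 12.

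Chrna4, the alpha partner of Chrnb2, was far from even. Cluster 13, marked by Nfib, Nppc and Bmp3, had 16.8 CPM (13.2 to 21.1) from 74 UMIs in 43 of 144 cells, a log2 ratio of 3.06 (2.67 to 3.44). Cluster 8, marked by Rorb, Nr2f2 and Wnt4, had 12.1 CPM (9.38 to 15.4) from 66 UMIs in 38 of 86 cells, a log2 ratio of 2.54 (2.13 to 2.93). Cluster 1 followed with 8.19 CPM (5.77 to 11.3) in 25 of 100 cells and cluster 11, marked by Rspo3 and Foxa1, with 5.55 CPM (4.06 to 7.40) in 24 of 129 cells.

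Neighbours in this order, from cluster 13 to 8, 8 to 1 and 1 to 11, did not differ beyond their counting intervals. The intervals of clusters 13 and 11, further apart in the order, did not overlap. The step from cluster 11 to cluster 10 (3.30 CPM, 2.48 to 4.30) was beyond counting error. At the other end, clusters 2, 3, 4, 6 and 9 gave 1 to 9 UMIs of Chrna4 each, and cluster 2, the largest with 369 cells and marked by Crym and Trh, gave 2. The share of cells with a UMI was highest in cluster 8 at 44.2% (33.5 to 55.3) and 29.9% (22.5 to 38.0) in cluster 13, whose cells had a median of 28628 UMIs against 65593 in cluster 8. After thinning it was 26.9% in cluster 13 and 23.8% in cluster 8. Most cells that held Chrna4 held 1 UMI (140 of 216), and the most in any cell was 5.

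Both barcode sets put clusters 13 and 8 highest, at 14.9 and 12.8 CPM in set 1 and 18.6 and 11.7 CPM in set 2. In cluster 11 the sets differed, with 10.9 CPM in set 1 and 4.21 CPM in set 2, and in cluster 1 they were 4.37 and 10.3 CPM. Cluster 13 also had the highest level of the myelin gene Mbp, 47.2 CPM against 15.8 to 28.0 CPM elsewhere, and of the astrocyte gene Aldh1l1, 1.59 CPM, and the part of these in the Chrna4 value was not tested.

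Chrna7, whose product forms channels alone, had its highest level in cluster 14, marked by Gpr101, Ecel1 and Cxcl14. There 17 UMIs in 16 of 100 cells made 4.76 CPM (2.77 to 7.63), a log2 ratio of 2.51 (1.68 to 3.26). Cluster 12 was next at 2.01 CPM (0.965 to 3.70), from 10 UMIs, and the step between them was 1.24 (0.03 to 2.53) on the log2 scale. The other 12 clusters lay between 0.268 and 1.81 CPM, with no step between neighbours by level beyond counting error. By barcode set, cluster 14 had 8.92 CPM in set 1, from 10 UMIs, and 2.86 CPM in set 2, from 7 UMIs. Only 7 of 14 clusters reached 10 UMIs of Chrna7, so values elsewhere are not read as levels.

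Chrna3 gave 12 UMIs in cluster 2, 8 in cluster 13, 3 in clusters 6 and 10, at most 2 in clusters 3, 4 and 7, and 0 in 7 clusters. These UMIs were in 10 of 369 cells of cluster 2 and 5 of 144 cells of cluster 13. They make 0.585 CPM (0.302 to 1.02) and 1.81 CPM (0.783 to 3.57). The step from cluster 13 down to cluster 2 was 1.63 (0.14 to 3.05) on the log2 scale. Cluster 13 held under 10 UMIs, so its value is not read as a level and the clusters are not ordered. In the 109 cells of cluster 12, 0 UMIs were found, where 3 UMIs would be 0.604 CPM.

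Chrm2 was found in every cell of its highest cluster, and the cluster held 495 of its 1536 UMIs. In cluster 12, marked by Met and Zeb2, 109 of 109 cells held a UMI, with a median of 4 and up to 18 UMIs per cell, and 74.3% of these cells held 3 or more. These UMIs made 99.6 CPM (91.0 to 109), 12.5-fold the level of the remaining cells, or 3.64 (3.49 to 3.80) as a log2 ratio. The barcode sets gave 95.9 and 102 CPM. After thinning, 83.0% of the cells of cluster 12 still held a UMI.

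The next 5 clusters held Chrm2 at a middle level. These were cluster 13 at 21.3 CPM (17.2 to 26.1), cluster 1 at 18.8 CPM (15.0 to 23.3), cluster 4 (marked by Sox14) at 17.1 CPM (14.5 to 20.1), cluster 3 (marked by Kit) at 14.4 CPM (12.8 to 16.1) and cluster 2 at 13.1 CPM (11.5 to 14.7). Neighbours among these 5 did not differ beyond counting error, but the intervals of clusters 13 and 2, the ends of the 5, did not overlap. The steps from cluster 12 down to 13, 2.22 (1.90 to 2.56), and from cluster 2 down to 6, 1.55 (1.08 to 2.05), both on the log2 scale, were beyond counting error. In cluster 4 the gene was found in 52.4% of cells and in cluster 13 in 28.5%, where 1 cell held 11 UMIs.

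The lowest 8 clusters ranged from 4.47 CPM (3.24 to 6.02) in cluster 6 to 1.13 CPM in cluster 7, from 9 UMIs. In cluster 11, 12 of the 14 UMIs came from a single cell. In cluster 14, 11 of the 12 UMIs came from set 1. Cluster 13 had 30.7 CPM in set 1 and 12.4 CPM in set 2. 9330158H04Rik, the gene that overlaps Chrm2 on the other strand, was also highest in cluster 12, at 17.9 CPM from 89 UMIs, against at most 5.76 CPM elsewhere. Vessel genes were low but present in cluster 12, with Cldn5 at 4.23, Flt1 at 1.41 and Vtn at 9.06 CPM, and all 45 UMIs of Vtn came from 1 cell. Their part in the Chrm2 value was not tested.

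**Figure D2:**
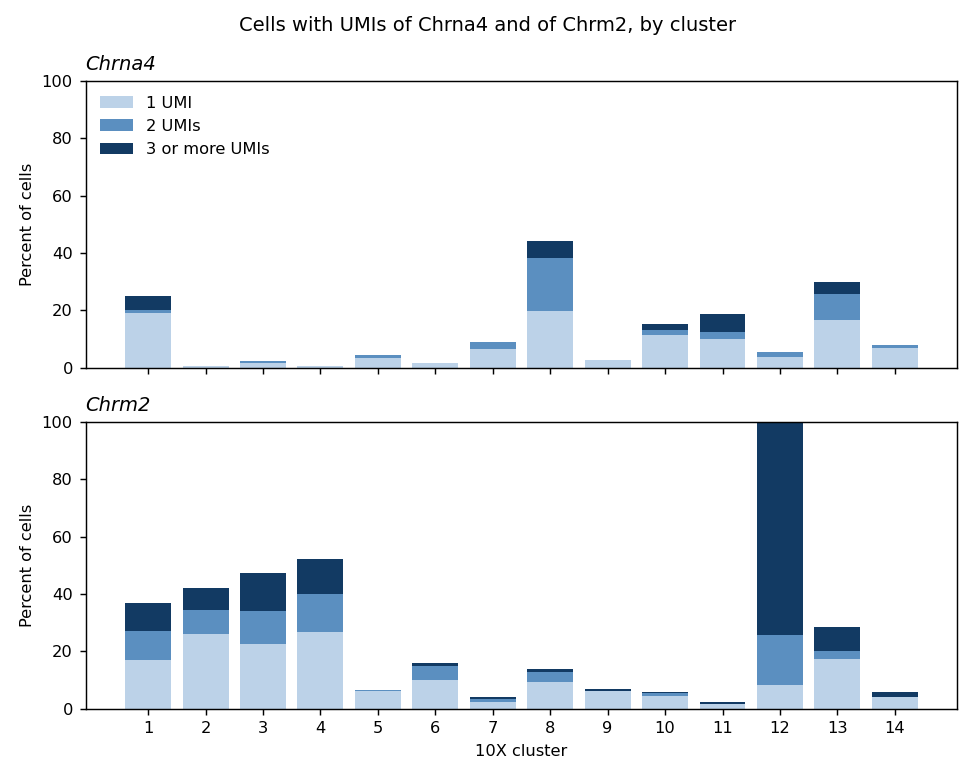
Percent of the cells of each cluster that held 1, 2 or 3 or more UMIs of Chrna4 (top) and of Chrm2 (bottom). In cluster 12, 74.3% of cells held 3 or more UMIs of Chrm2 and 0% held none, whereas Chrna4 in its highest clusters was mostly 1 or 2 UMIs in a part of the cells.

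Chrm3 had at most 4 UMIs in any cluster and 0 in clusters 4, 5 and 7, so no level can be read for it in any of the 14.

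To see how often 10X cells differ this much, a gene with at least 100 UMIs was called where its level in a cluster was at least 2-fold above or below all other cells. Of the 4 members with that many UMIs, Chrna4, Chrna7 and Chrm2 were called higher in 1 or more clusters and Chrnb2 was not, where 20.9% of 12901 genes were called. The same 3 of 4 were called lower in 1 or more clusters, where 26.8% of genes were called. The lower calls of Chrna7 were in clusters 2, 5 and 10, from 10, 3 and 5 UMIs. Genes with few UMIs pass the limit more often: without the minimum of 100 UMIs, 45.1% of genes were called lower. In cluster 12, Chrm2 and Chrna7 were called higher, 2 of 4 against 3.82% of all genes, and Chrna7 rested on 10 UMIs. In cluster 13, Chrna4 was called higher, 1 of 4 against 8.33% of all genes. With 4 members these counts are small, and the calls are sizes, not tests.

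Most cells held few members at once. Of 2350 cells, 353 held a UMI of none, 1269 of 1, 658 of 2, 67 of 3 and 3 of 4 members, and 14.7% held a UMI of any of the 3 alpha genes. Chrna4 and Chrnb2, the subunits of 1 channel, were found together in 159 cells, 6.77% (5.78 to 7.86). Chrnb2 was found in 73.6% (67.2 to 79.4) of the cells with Chrna4 and in 75.3% of the others, which is within counting error. These shares were 60.5% and 54.5% within cluster 13, 78.9% and 79.2% within cluster 8, and 52.0% and 48.0% within cluster 1. Thinned, the pair was found in 2.35% of cells, and Chrnb2 in 47.0% (37.6 to 56.5) of the cells with Chrna4 and 40.0% of the others.

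Other pairs were rarer. Chrna7 and Chrnb2 were found together in 89 cells, 3.79%, and Chrnb2 was in 78.8% (70.1 to 85.9) of the cells with Chrna7 against 74.9% of the others. Chrna3 and Chrnb2 shared 17 cells, Chrna3 and Chrna4 shared 2, Chrm2 and Chrm3 shared 7, and Chrna4 and the accessory subunit gene Chrna5 shared 1. These numbers count cells with a UMI of both genes, not cells that share the RNAs, and those of Chrna3 and Chrm3 are not read as expression, as above.

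In the manually sorted cells levels are CPM per cell, reads of the gene per 1000000 reads on genes, from full-length libraries without UMIs. A count of 3 reads is 0.391 to 3.96 CPM, depending on the cell. Chrnb2 was read in 63 of 70 cells, Chrm2 in 25, Chrna7 in 13, Chrna4 in 10, Chrm3 in 2 and Chrna3 in 0, which allows a share of up to 4.29% of cells with a read. Per kilobase of exon, the scale on which levels are compared between genes here, mean levels over the 70 cells were 3.30 CPM per kb for Chrnb2, 2.64 for Chrm2, 0.833 for Chrna4, 0.731 for Chrna7 and 0.0013 for Chrm3.

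A member was called sparse in a sorted group where under 50% of its cells held a read. Chrnb2 was above that limit in 8 of 8 groups, Chrm2 in 3 groups and Chrna4 in 1, while Chrna7, Chrna3 and Chrm3 were sparse in all 8. Both Chrm3 cells were in Sert_Pet1_cDR and held 1 read each, at 0.278 and 0.292 CPM.

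Chrnb2 was read in every sorted group. In Sert_Pet1_cDR its lowest, median and highest cells had 8.35, 72.1 and 137 CPM, with reads in 6 of 6 cells. In Crh_Pet1_rDR they had 8.16, 26.0 and 47.1 CPM, in 8 of 8 cells. In Npy2r_Pet1_cDR they had 0.191, 19.7 and 64.3 CPM, in 10 of 10 cells.

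The 5 other groups overlapped these. Sert_Pet1_vmDR had 0, 24.7 and 47.6 CPM, P2ry1_Pet1_cDR 0, 22.6 and 156 CPM, and Npy2r_Pet1_rDR 0, 21.1 and 52.2 CPM. Sert_Pet1_dmDR had 0.187, 17.1 and 85.8 CPM, and Sert_Pet1_dlDR 0, 9.87 and 128 CPM. Sert_Pet1_cDR thus had the highest median, and 3 of its 6 cells, at 83.8, 89.7 and 137 CPM, exceeded all cells of Sert_Pet1_vmDR, Npy2r_Pet1_cDR, Npy2r_Pet1_rDR and Crh_Pet1_rDR, but its range overlapped that of every other group. Adar, which shares exon bases with Chrnb2, was read in 65 of 70 cells with a median of 19.4 CPM and was at 16.8 CPM in the median cell of Sert_Pet1_cDR. Over the 70 cells, which share preparation and depth, Chrnb2 and Adar levels had a Pearson r of 0.172 and a Spearman rho of 0.233.

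**Figure D3:**
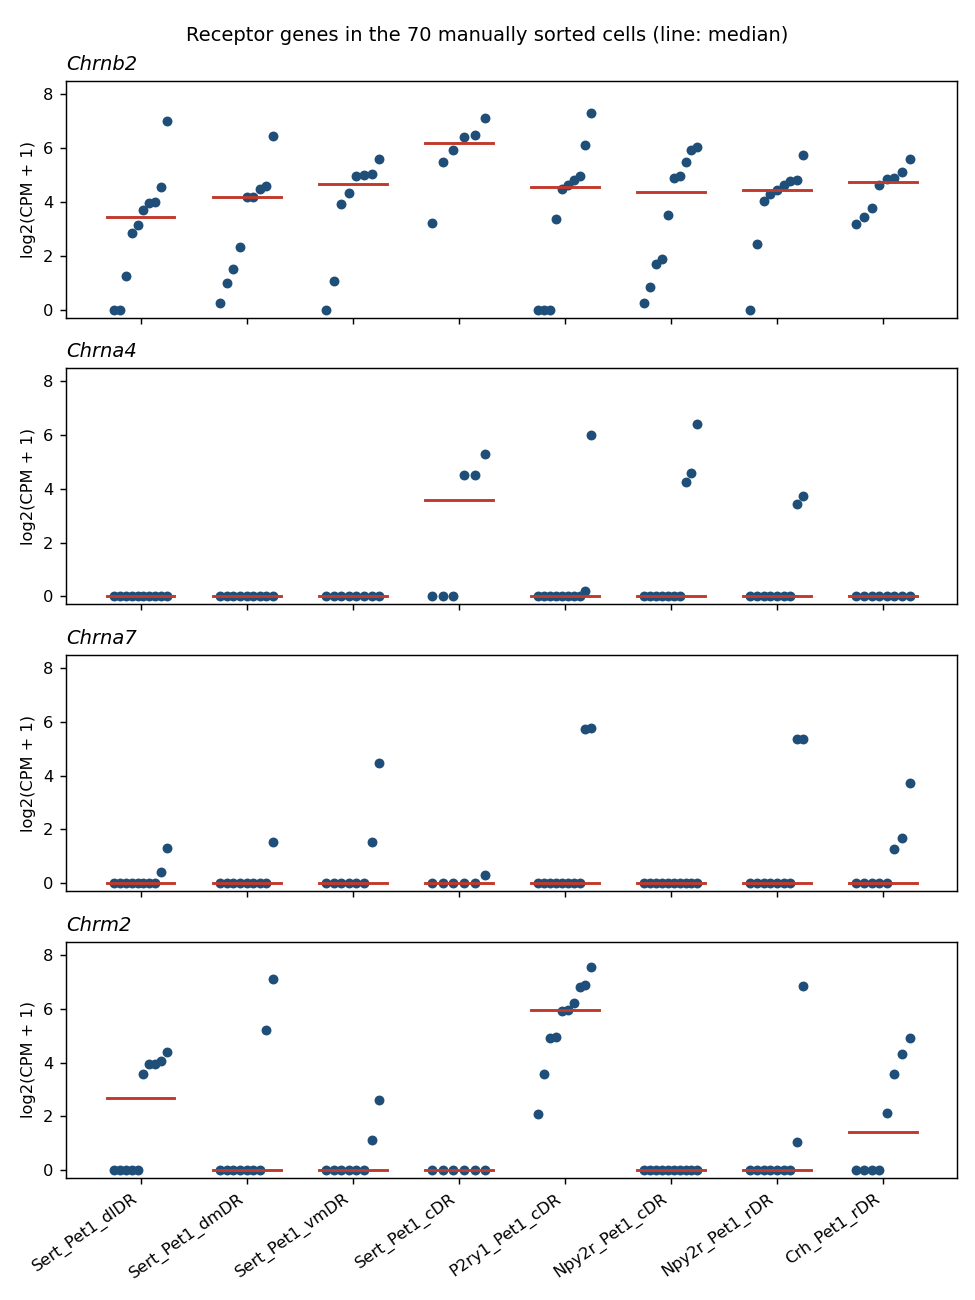
Levels of Chrnb2, Chrna4, Chrna7 and Chrm2 in each of the 70 manually sorted cells, as log2(CPM + 1), with cells ordered by level within each of the 8 groups and a line at the group's median. Chrm2 is read in 10 of 10 cells of P2ry1_Pet1_cDR and in 0 cells of Sert_Pet1_cDR and Npy2r_Pet1_cDR, while Chrnb2 overlaps between all groups.

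Chrna4 was read in 10 of 70 cells of 4 groups. In Sert_Pet1_cDR 3 of 6 cells held it, at 21.8, 22.0 and 38.0 CPM. In Npy2r_Pet1_cDR 3 of 10 did, at 18.0, 23.3 and 84.4 CPM. In Npy2r_Pet1_rDR 2 of 9 did, at 9.84 and 12.3 CPM. P2ry1_Pet1_cDR had 2 of 10, at 0.156 and 63.1 CPM, so 8 of the 10 cells came from the caudal DR. The 0 of 10 cells of Sert_Pet1_dlDR allow a share of up to 30.0%, the 0 of 9 of Sert_Pet1_dmDR up to 33.3%, and the 0 of 8 of Sert_Pet1_vmDR and of Crh_Pet1_rDR up to 37.5% each.

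Chrna7 was read in 13 of 70 cells. P2ry1_Pet1_cDR had 52.4 and 54.3 CPM in 2 of 10 cells, and Npy2r_Pet1_rDR 40.3 and 40.6 CPM in 2 of 9. Crh_Pet1_rDR had 1.41, 2.18 and 12.3 CPM in 3 of 8 cells, and Sert_Pet1_vmDR 1.88 and 21.2 CPM in 2 of 8. Sert_Pet1_dlDR (2 of 10), Sert_Pet1_dmDR (1 of 9) and Sert_Pet1_cDR (1 of 6) had at most 1.87 CPM, and Npy2r_Pet1_cDR had reads in 0 of 10. Cells with reads thus fell in 7 of 8 groups, at levels from a single read up.

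Chrm2 was read in 10 of 10 cells of P2ry1_Pet1_cDR, with 3.25, 11.0, 29.3, 30.1, 60.0, 61.0, 72.9, 112, 116 and 189 CPM and a median of 60.5 CPM. In the other 7 groups it was read in 15 of 60 cells, 25.0% (14.7 to 37.9). The other caudal groups had it in 0 of 6 cells (Sert_Pet1_cDR, which allows a share of up to 50.0%) and 0 of 10 cells (Npy2r_Pet1_cDR, up to 30.0%), where 3 reads would be 0.462 to 0.897 CPM. Every cell of P2ry1_Pet1_cDR therefore lay above every cell of the other caudal groups.

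The other 5 groups overlapped P2ry1_Pet1_cDR, and single cells of Sert_Pet1_dmDR and Npy2r_Pet1_rDR reached its upper cells. Sert_Pet1_dlDR had reads in 5 of 10 cells, at 10.9 to 20.2 CPM, and Crh_Pet1_rDR in 4 of 8, at 3.37 to 28.9 CPM, so that their medians, 5.46 and 1.69 CPM, fall to 0 when 1 of several cells is left out. In Sert_Pet1_dmDR 2 of 9 cells held 36.2 and 138 CPM, in Npy2r_Pet1_rDR 2 of 9 held 1.07 and 115 CPM, and in Sert_Pet1_vmDR 2 of 8 held 1.16 and 5.15 CPM. By age, Sert_Pet1_dmDR had reads in 2 of 3 cells at day 90 and 0 of 6 at day 63, and Sert_Pet1_dlDR in 3 of 5 at day 90 and 2 of 5 at day 63. Npy2r_Pet1_rDR went the other way, with 2 of 3 cells at day 77 and 0 of 6 at day 87, Sert_Pet1_vmDR had 1 of 4 at either age, and Crh_Pet1_rDR had 1 of 2 at day 83 and 3 of 6 at day 119. Within P2ry1_Pet1_cDR the gene was read at each of 5 ages. 9330158H04Rik had reads in 0 of 70 cells.

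Met and Zeb2, the markers of cluster 12, were read in 9 and 10 of the 10 cells of P2ry1_Pet1_cDR. In the other groups Met was read in 2 of 60 cells, at up to 3.45 CPM, and Zeb2 in 10 of 60, at up to 0.730 CPM. The group with Chrm2 in every cell therefore held the marker genes of the cluster with Chrm2 in every cell.

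Between P2ry1_Pet1_cDR and Sert_Pet1_cDR, 2 groups of the same part of the DR at days 62 to 74 and at day 63, mean CPM differed by at least 2-fold upwards for Chrm2 and Chrna7, 2 of the 4 members with a mean of at least 1 CPM, where 18.4% of 12287 genes were called. It differed downwards for Chrna4 and Chrnb2, also 2 of 4, where 22.9% were called. The mean of Chrnb2 was 33.6 ± 47.7 CPM (SD over cells, n = 10) in P2ry1_Pet1_cDR and 70.5 ± 44.0 CPM (n = 6) in Sert_Pet1_cDR, and that of Chrm2 was 68.5 ± 57.2 CPM and 0. Neither downward call held without single cells: the ratio of Sert_Pet1_cDR to P2ry1_Pet1_cDR for Chrnb2 was 2.10, but 1.70 without the cell at 137 CPM and 3.53 without the cell at 156 CPM. For Chrna4 it was 2.15, but 1.38 without the cell at 38.0 CPM and 787 without the cell at 63.1 CPM. In the other 6 groups mean Chrnb2 was 19.1 to 24.4 CPM, below that of P2ry1_Pet1_cDR. Mean Chrna4, 6.33 CPM in P2ry1_Pet1_cDR, was 12.6 CPM in Npy2r_Pet1_cDR, 2.46 CPM in Npy2r_Pet1_rDR and 0 in 4 groups. The calls for Chrna4 and Chrna7 rest on 2 cells each in P2ry1_Pet1_cDR, and on 3 cells and 1 read in Sert_Pet1_cDR. Both Chrna7 cells of P2ry1_Pet1_cDR were from day 74, where 2 of 2 cells held reads, against 0 of 8 at days 62 to 66, so without day 74 the call is lost.

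In single manual cells, Chrnb2 was read in 9 of the 10 cells with Chrna4 and in 54 of the 60 without it. It was read in 11 of the 13 cells with Chrna7 and 52 of the 57 without it, and in 20 of the 25 cells with Chrm2 and 43 of the 45 without it. Chrna4 and Chrna7 shared 0 cells. Of 70 cells, 1 held no member, 32 held 1, 30 held 2 and 7 held 3.

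Beside the members, 49 further genes of acetylcholine signalling were followed. Of 12 other nicotinic subunit genes, 6 had a row in the 10X table, and all 6 were found in under 10% of cells. Only Chrna5, an accessory subunit gene next to Chrna3, reached 100 UMIs, and it lay between 0 and 1.81 CPM, highest in clusters 13 and 2. In the manual cells 3 of the 12, Chrna2, Chrna10 and Chrne, had no read, Chrna5 had reads in 3 cells and Chrnb4 in 3. The most widely read of the 12 had reads in 29 cells, more than any member but Chrnb2. The median over the 12 was 2 cells, and 3 of them had a mean of at least 1 CPM.

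Chrm1, the Gq-coupled M1 receptor, was the other muscarinic gene found in over 10% of 10X cells, 10.5%. It was highest in clusters 14, 13 and 12, at 10.9, 10.2 and 9.06 CPM, followed by cluster 7 at 5.51 CPM, and was at most 2.95 CPM elsewhere. Chrm4 and Chrm5 were found in 0.426% and 1.15% of cells, with Chrm5 at 2.49 and 1.96 CPM in clusters 13 and 14 and at most 0.443 CPM elsewhere. In the manual cells Chrm1 was read in 8 cells, Chrm4 in 4 and Chrm5 in 0.

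Of the 8 assembly and accessory genes with a row, 7 were found in over 10% of 10X cells, and Rapsn, which clusters the muscle receptor, in 2.81%. Ric3, a chaperone of nicotinic receptors, was even across clusters at 61.6 to 73.5 CPM and had reads in 68 of 70 manual cells. Of the 8, 4 were called higher in 1 or more clusters, where 20.9% of all genes were, and 5 lower, where 26.8% were. Lypd6b, of the Ly6 family that binds nicotinic receptors, stood at 16.2 CPM in cluster 9, with 11.7 and 10.2 CPM in clusters 12 and 13, and at most 3.64 CPM elsewhere. Lypd1, of the same family, was lowest in cluster 5, at 23.7 CPM, and highest in clusters 13 and 8, those with the most Chrna4, at 393 and 382 CPM. Ly6h was highest in cluster 14, at 1925 CPM.

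Genes that make acetylcholine were near 0, and the enzyme that breaks it down was in nearly every cell. Chat was found in 8 of 2350 cells and Slc18a3, the vesicular transporter, in 5, whereas Ache, acetylcholinesterase, was found in 99.7% of cells at 126 to 249 CPM and in 70 of 70 manual cells. Slc5a7, the choline transporter, was at 10.3 CPM in cluster 4 and at most 1.77 CPM elsewhere. Bche, butyrylcholinesterase, was at 3.95 CPM in cluster 2 and at most 1.34 CPM elsewhere.

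Of 18 genes downstream of muscarinic receptors, 16 reached 100 UMIs, and 7 of these were called higher in 1 or more clusters, against 20.9% of all genes, and 8 lower, against 26.8%. In cluster 12, where Chrm2 was highest, Gnai1, a Gi subunit, was also at its highest, 619 CPM against 241 to 484 CPM elsewhere, while the GIRK channel genes Kcnj3 and Kcnj6 were at their lowest, 7.04 and 6.04 CPM, against 13.7 to 35.1 and 9.19 to 24.7 CPM elsewhere. Kcnj9, another GIRK gene, was at 17.7 CPM, within its range of 15.2 to 45.0 CPM. In the manual cells Kcnj3 was read in 2 of 10 cells of P2ry1_Pet1_cDR and 45 of the other 60, and Kcnj6 in 4 of 10 and 43 of 60. Plcb4, a phospholipase C of the Gq branch, was highest in cluster 12, at 439 CPM, and its median was highest in P2ry1_Pet1_cDR, at 499 CPM against at most 132 CPM in the other groups. In clusters 13 and 14, where Chrm1 was highest, the channel gene Trpc5 stood at 39.7 and 55.8 CPM, against at most 4.13 CPM elsewhere, and Itpr1, an intracellular calcium channel, differed between them, with 10.2 CPM in cluster 13 and 0.280 CPM in cluster 14.

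**Figure D4:**
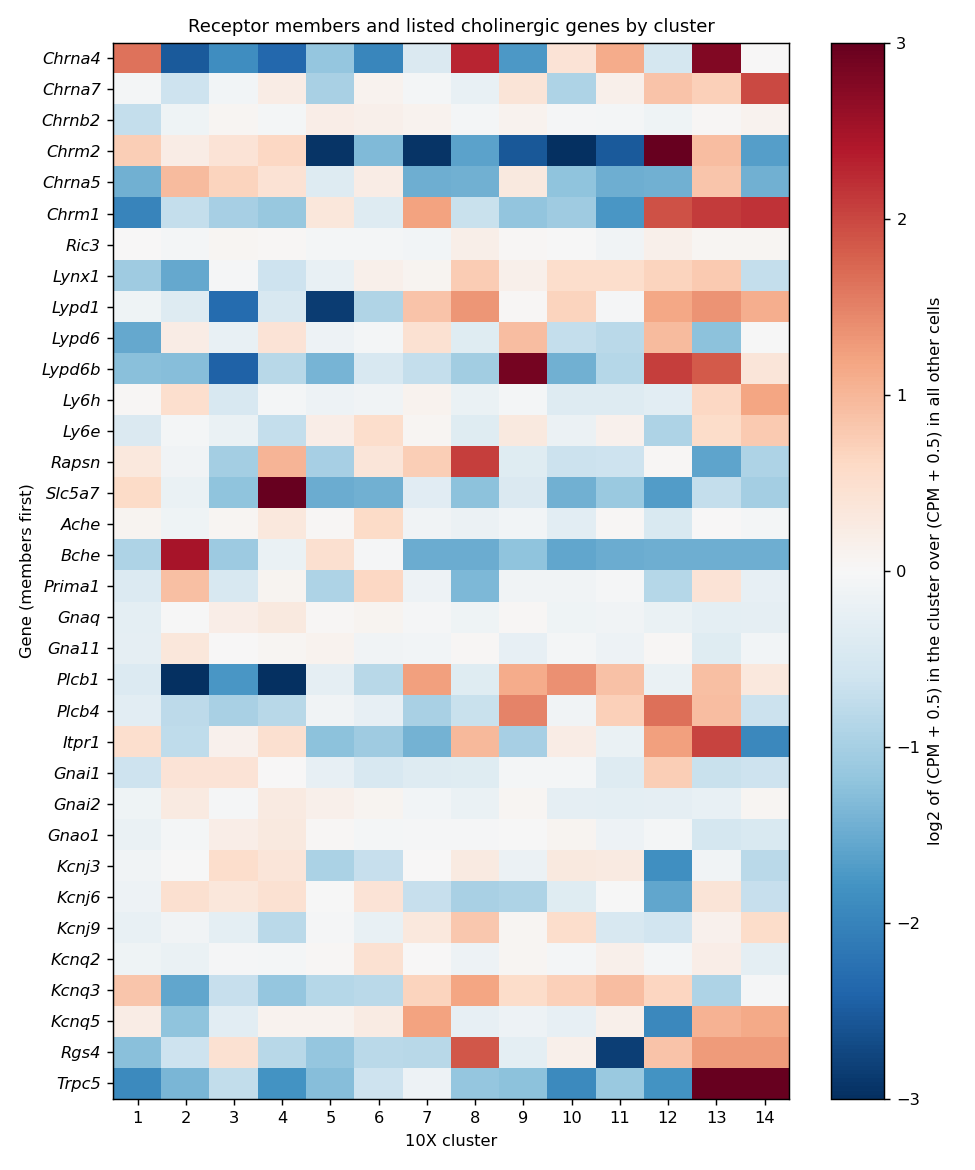
Log2 ratio of the level in each of the 14 clusters to all other cells (0.5 CPM added to both, colour limits at -3 and 3) for the 4 members and the listed genes with at least 100 UMIs. Chrm2, Plcb4 and, less strongly, Gnai1 are raised and Kcnj3 and Kcnj6 lowered in column 12. Chrm1 is raised in columns 12 to 14, and the rows of Chrnb2 and Ric3 are nearly blank.

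The genes most like each member over the 14 clusters were found by the Pearson r of log2(CPM + 1) among 10484 genes with at least 500 UMIs, a description over 14 points from the same libraries. For Chrm2 they were Lrrtm3 (0.907), Araf (0.907) and Zfp354c (0.906). For Chrna4 they were Tbc1d10a (0.895), Asl (0.857) and Olfm2 (0.856), and for Chrnb2 Blzf1 (0.857), Sox1 (0.856) and Mtx3 (0.848). For Chrna7 they were Xrcc5 (0.876), Tor1b (0.873) and Cnot3 (0.860), for Chrna3 Cbwd1 (0.894), Ube2v2 (0.890) and Pex7 (0.875), and for Chrm3 Elmod3 (0.924), Mad1l1 (0.853) and Lrrcc1 (0.839), the last 2 sets resting on too few UMIs of the member to be read as a pattern.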

How the data were processed

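The 2350 cells of the 10X experiment and the 70 manually sorted cells were measured by single-cell RNA-seq. The authors deposited both as raw counts per gene and cell, UMI counts for 10X Chromium 3′ v3 libraries and read counts for SMART-Seq v4 libraries made with Nextera XT. The submitters' processing notes name Cell Ranger 3.0.2, STAR 2.5.4, R 3.5.3 and mm10, and the annotation is not given in the sources used here. Before deposit the authors removed 10X cells with low Fev, with high glial or mitochondrial transcripts or with outlying totals, and genes found in few cells. Manual columns carry the titles of their samples, except the 8 of Crh_Pet1_rDR, which are headed Crf (corticotropin-releasing factor, another name for the Crh product) and were matched by that name, the region and the number.

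Here the members, lists and thresholds were chosen with earlier results of these data known. Clusters were rebuilt in Seurat 5.3.0 (R 4.3.3) from counts log-normalized to 10000, 2000 variable genes, components 1 to 50 without 6 and 7, 20 neighbours and Louvain at 0.9, and numbered by marker genes, 14 of 14 with the highest score for their number. Which cells stand near a border depends on these settings. Scrublet in scanpy 1.11.5, run per barcode set at an expected rate of 5%, called 14 doublets (7 in each set), which were kept in the main values. Levels are CPM of summed counts, and 3 counts were the floor where a count was 0. With 1 sample a group there was no test, no p-value and no standard error between groups. UMI counts come from 3′ ends, and manual reads are PCR copies without molecular identifiers, so intervals are too narrow for the latter and were not given for their levels. Alternative scalings of the manual counts used TMM factors (edgeR 4.0.16) and size factors (DESeq2 1.42.0). Other alternatives were thinning, doublets, barcode sets, resolution 0.7, components 1 to 50, clustering without the cholinergic genes, single ages, leaving out each cell, and no minimum for fold calls. Other computation used Python 3.11.15, numpy 2.4.6, scipy 1.17.1, pandas 2.3.3 and matplotlib 3.10.9.

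Genes named are the 6 members, the listed cholinergic genes, the marker genes, and for each member the 3 genes most like it over the clusters. Adar and 9330158H04Rik are named for their overlap with members. Listed genes with no row in a table were not analysed here.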

Additional observations from a re-analysis of the deposited data

Results flagged for a closer look

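In each sorted group of 6 to 10 cells, the highest and the lowest cell were compared with the rest for each member with a read, over 26 combinations of member and group. In 13 of these the highest cell stood apart from the others by Dixon's 95% critical value, which chance alone passes in about 1 in 20 groups of normally spread values. Levels of single cells with many at 0 are not spread that way. Every flagged group of Chrna4, Chrna7 and Chrm2 had reads in at most 3 cells, with most cells at 0, and 2 of the 13 had reads in 1 cell only.

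For Chrnb2 the cells far above their group were 1 of Sert_Pet1_dlDR at 128 CPM, 1 of Sert_Pet1_dmDR at 85.8 CPM and 1 of P2ry1_Pet1_cDR at 156 CPM, the highest of all 70. For Chrm2 they were 1 of Sert_Pet1_dmDR at 138 CPM, 1 of Npy2r_Pet1_rDR at 115 CPM, both as high as the upper cells of P2ry1_Pet1_cDR, and 1 of Sert_Pet1_vmDR at 5.15 CPM. For Chrna4 they were 1 of P2ry1_Pet1_cDR at 63.1 CPM and 1 of Npy2r_Pet1_cDR at 84.4 CPM. For Chrna7 they were 1 of Sert_Pet1_vmDR at 21.2 CPM, 1 of Crh_Pet1_rDR at 12.3 CPM, 1 of Sert_Pet1_dmDR at 1.87 CPM, 1 of Sert_Pet1_dlDR at 1.48 CPM and 1 of Sert_Pet1_cDR at 0.228 CPM, which is a single read.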

How the results depend on the processing

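No paired analysis was possible because no result comes from a test and a replicate number names only a cell. Cluster log2 ratios were recomputed for 17 pairs of member and cluster, those at least 2-fold from the other cells with 10 or more UMIs and Chrnb2 in cluster 1, and none of these changed sign. Chrnb2 in cluster 1 stayed between -0.82 and -0.59. In the manual cells, of 104 medians recomputed without 1 cell none moved by more than 1 SD over the cells of its group. Some did move by over 1.5 times: leaving out 1 cell gave Chrnb2 10.5 to 28.8 CPM in Npy2r_Pet1_cDR and 10.6 to 17.1 CPM in Sert_Pet1_dmDR, Chrm2 0 to 10.9 CPM in Sert_Pet1_dlDR and 0 to 3.37 CPM in Crh_Pet1_rDR, and Chrna4 0 to 21.8 CPM in Sert_Pet1_cDR, so these medians rest on single cells. Thinning to 20000 UMIs removes counts by its construction and leaves out the shallowest cells. It lowered the share of each member, to 40.3% for Chrnb2, 15.8% for Chrm2, 5.01% for Chrna4, 1.96% for Chrna7, 0.522% for Chrna3 and 0.218% for Chrm3. The same thinning took shared cells to 2.35% for Chrna4 with Chrnb2, 0.784% for Chrna7 with Chrnb2, 0.0435% for Chrna3 with Chrnb2, and 0% for Chrm2 with Chrm3 and for Chrna4 with Chrna5. Barcode set 1 alone gave 77.2% for Chrnb2, 33.5% for Chrm2, and 0% for Chrna3 with Chrna4 and for Chrna4 with Chrna5, and set 2 alone gave 24.6% for Chrm2.

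The log2 ratios of clusters to all other cells moved as follows. For Chrna4, cluster 8 fell to 1.55 at resolution 0.7, 1.19 with components 1 to 50 and 1.21 without the cholinergic genes, because its 86 cells were then merged with most of cluster 10; cluster 1 gave 1.10 thinned and 0.85 in set 1, and cluster 11 gave 2.32 in set 1. For Chrna7, cluster 14 gave 1.33 at resolution 0.7 and 1.35 with components 1 to 50, merged with cluster 7, and 3.61 in set 1. For Chrm2, cluster 12 gave 3.48 with components 1 to 50, where it was split, 3.23 in set 1 and 3.92 in set 2, and held the same 109 cells at resolution 0.7 and without the cholinergic genes. At resolution 0.7, Chrm2 gave -2.23 in clusters 5 and 6, which were merged, -2.93 in cluster 8 and -2.74 in cluster 14. Clusters 8 and 10 gave -2.77 each with components 1 to 50 and -2.77 each without the cholinergic genes. Set 1 gave -4.53 in cluster 11 and -0.48 in cluster 14, and set 2 gave -4.67 in cluster 14, from 1 UMI. The cause of differences between the sets was not tested.

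In the manual cells, the median of Chrnb2 was 7.70 CPM in Sert_Pet1_vmDR at day 63 alone and 156 CPM in the 1 cell of P2ry1_Pet1_cDR at day 62, and that of Chrm2 was 14.4 CPM in Sert_Pet1_dlDR at day 90 alone. Chrm3 was in 0 cells at a minimum of 1 CPM and in 1 cell when thinned. TMM and DESeq2 factors moved no member's median by more than 1 SD over the cells of its group. Where that SD exceeds the median, as for Chrnb2 in P2ry1_Pet1_cDR, no fall could pass this limit, so the check is weak there. Without a minimum, which adds genes with few counts, fold calls rose to 6814 genes higher and 7766 lower in 1 or more clusters, 1490 higher in cluster 12, 2434 higher in cluster 13, and 4675 lower in P2ry1_Pet1_cDR than in Sert_Pet1_cDR. An alternative chosen after seeing the data left out each cell of these groups in turn: the ratio of Sert_Pet1_cDR to P2ry1_Pet1_cDR means then ran from 1.70 to 3.53 for Chrnb2 and from 1.38 to 787 for Chrna4, both lost as calls without some cells, and that of P2ry1_Pet1_cDR to Sert_Pet1_cDR for Chrna7 from 153 to 311, with no ratio without the 1 cell of Sert_Pet1_cDR that held a read, since its mean is then 0.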
